A study of Mus musculus with 12 samples.

Results

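The 34 genes of the unfolded protein response and of the ATF4 amino acid response were followed across the 4 treatment groups of an RNA-seq study of mouse embryonic fibroblasts. They were taken by symbol from the 48709 genes of the series count table: 14 endoplasmic reticulum (ER) chaperones and folding factors, 3 genes of ER-associated degradation, 5 stress transcription factors, 3 feedback and effector genes downstream of ATF4, 6 enzymes of amino acid and one-carbon synthesis, and 3 amino acid transporter subunits. All 34 had 1 row in the table and all 34 were among the 13702 genes that passed the filter on low counts. The fibroblasts were wild type, of strain C57BL/6, from E12.5–13.5 embryos. Cells of the siControl groups received a control siRNA and those of the siIMP2 groups an siRNA against IMP2, an RNA-binding reader of N6-methyladenosine encoded by Igf2bp2. Medium was changed 24 hours later, and the cells either stayed unstimulated (siControl and siIMP2) or received interleukin-17 (IL-17) at 200 ng/mL for 8 hours (siControl_IL17 and siIMP2_IL17). By the labels all 4 groups were transfected, and no untransfected group was analysed here. The authors' deposited table calls the control Mock where the labels say siControl, and which of these describes the control cells was not settled. The labels give neither the sequence nor the number of the siRNAs against IMP2, so the loss of IMP2 and any other action of that siRNA cannot be told apart.

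The unfolded protein response is the way a cell adjusts its ER to the load of proteins to be folded. The ER membrane sensors IRE1, PERK and ATF6 act through the transcription factors XBP1, ATF4 and the cleaved form of ATF6, of which XBP1 and ATF6 mainly raise chaperones and degradation factors. ATF4 is shared with the integrated stress response: kinases that sense ER load, amino acid lack, haem lack or viral RNA phosphorylate eIF2 alpha, general translation slows, and ATF4 protein is made and induces amino acid transporters, amino acid synthesis genes and feedback genes. Fibroblasts secrete much collagen and so carry a large folding load.

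Each group held 3 libraries, with 33841054 to 44433699 counted reads per library. Replicates 1 and 2 of each group carry titles that begin with NA and replicate 3 a title that begins with RB160; what the prefixes stand for is not given in the labels, and the set was a term in the fits unless stated otherwise. Whether the 3 libraries of a group are separate cultures is not stated, so the p-values rest on a spread that may be technical. Levels are given as CPM (counts scaled to a common library size with TMM factors), where 1 CPM stands for 31.9 to 50.9 reads, and 3 values in a row are replicates 1, 2 and 3. In the plain lists of levels below, "with IL-17" stands for siControl_IL17 and siIMP2_IL17. Effects are log2 fold changes from the quasi-likelihood test of edgeR, with p-values adjusted over the 13702 genes by Benjamini and Hochberg's method, and a gene rose, fell or was called where the adjusted p was below 0.05. All 14 fibroblast markers were above 1 CPM in at least 1 library (summed level 27562 to 37924 CPM over the libraries). With the IMP2 siRNA 2 of them rose and 8 fell, against 24.1% and 25.3% of all genes averaged over both stimuli. Their sum was 32330 to 33634.5 CPM in siControl and 35760 to 37924 in siIMP2. It was 27562 to 31917 CPM in siControl_IL17 and 30074.5 to 35366 in siIMP2_IL17. The markers of erythroid cells summed to at most 0.0941 CPM, those of endothelium to at most 1.502 CPM and those of epithelium to at most 1.47 CPM, and 1 tested marker each of endothelium (log2 fold change -1.16) and epithelium (-1.20) fell with the IMP2 siRNA. The 7 macrophage markers summed to 3.81 to 6.09 CPM and 0 of the 2 tested were called. The 6 neural markers summed to 44.1 to 60.9 CPM in siControl and 36.8 to 61.5 in siControl_IL17, and to 37.8 to 43.8 in siIMP2 and 39.8 to 49.2 in siIMP2_IL17, with 3 of the 6 below 1 CPM in every library, and 2 of the 3 tested fell. The 5 skeletal muscle markers summed to 31.9 to 48.9 CPM in siControl and 15.5 to 32.5 in siControl_IL17, and to 89.8 to 251 in siIMP2 and 53.0 to 203 in siIMP2_IL17, with 4 of the 5 below 1 CPM in every library and the rest from the actin gene Acta1 (log2 fold change 2.08 with the IMP2 siRNA). The 5 plasma and B cell markers summed to 107 to 176 CPM, with 4 of the 5 below 1 CPM in every library and the rest from the syndecan gene Sdc1 (-0.55). At least 1 marker of each of the fibroblast, endothelial, epithelial, neural, muscle and plasma cell lists thus moved with the siRNA. Since 24.1% of all genes rose and 25.3% fell, single moved markers give no measure of a cell type. The part of these markers in the results was not tested. Fewer cells of a kind and less RNA per cell cannot be told apart in bulk libraries.

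Igf2bp2, the target of the siRNA, was measured at 167, 146 and 134 CPM in siControl and 166, 156 and 139 with IL-17, and at 22.3, 18.6 and 24.6 in siIMP2 and 24.3, 18.4 and 28.2 with IL-17. The 6 libraries with the IMP2 siRNA lay below all 6 with the control siRNA, with a log2 fold change over both stimuli of -2.74 ± 0.10 (SE), edgeR adjusted p = 2.39e-09.

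Compared per length by the authors' TPM, the members spanned a wide range of levels. The ER chaperone Hsp90b1 (GRP94) had the highest median over the 12 libraries, 1693 TPM, followed by the lectin chaperone Calr at 1276 TPM, the disulphide isomerase Pdia3 at 1008 TPM and the ER Hsp70 Hspa5 (BiP) at 960.5 TPM. The ranges over libraries of Pdia3 (595 to 1310 TPM) and Hspa5 (801 to 1299 TPM) overlapped. Atf4 stood at 714 TPM, far above the other transcription factors Atf5 (226 TPM), Xbp1 (118 TPM), Atf6 (37.3 TPM) and Atf3 (7.53 TPM). The lowest medians belonged to Atf3 and to the cystine transporter subunit Slc7a11 (10.1 TPM).

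The first comparison was between the siRNAs. Averaged over both stimuli, 17 of the 34 members rose and 5 fell with the IMP2 siRNA, while 12 did not pass the test. Over all genes tested, 24.1% rose and 25.3% fell, so the share of members that rose was above the background and the share that fell was below it. The members were chosen with earlier results of these data known, so these shares are descriptive and no independent test. The median log2 fold change was 0.11 over the members and -0.0022 over all genes tested. By role, 0 of the 14 ER chaperones and folding factors rose by edgeR (0 also at an unadjusted p below 0.05) and 5 fell. All 3 genes of ER-associated degradation rose, as did 4 of 5 transcription factors, all 3 ATF4 effectors, 5 of 6 synthesis enzymes and 2 of 3 transporter subunits. In unstimulated cells 16 members rose and 3 fell (16.1% and 16.7% of all genes), and with IL-17 11 rose and 3 fell (16.7% and 16.7%). Without the title-set term 2 of the 19 members called in unstimulated cells and 3 of the 14 called with IL-17 kept their call.

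**Figure D1:**
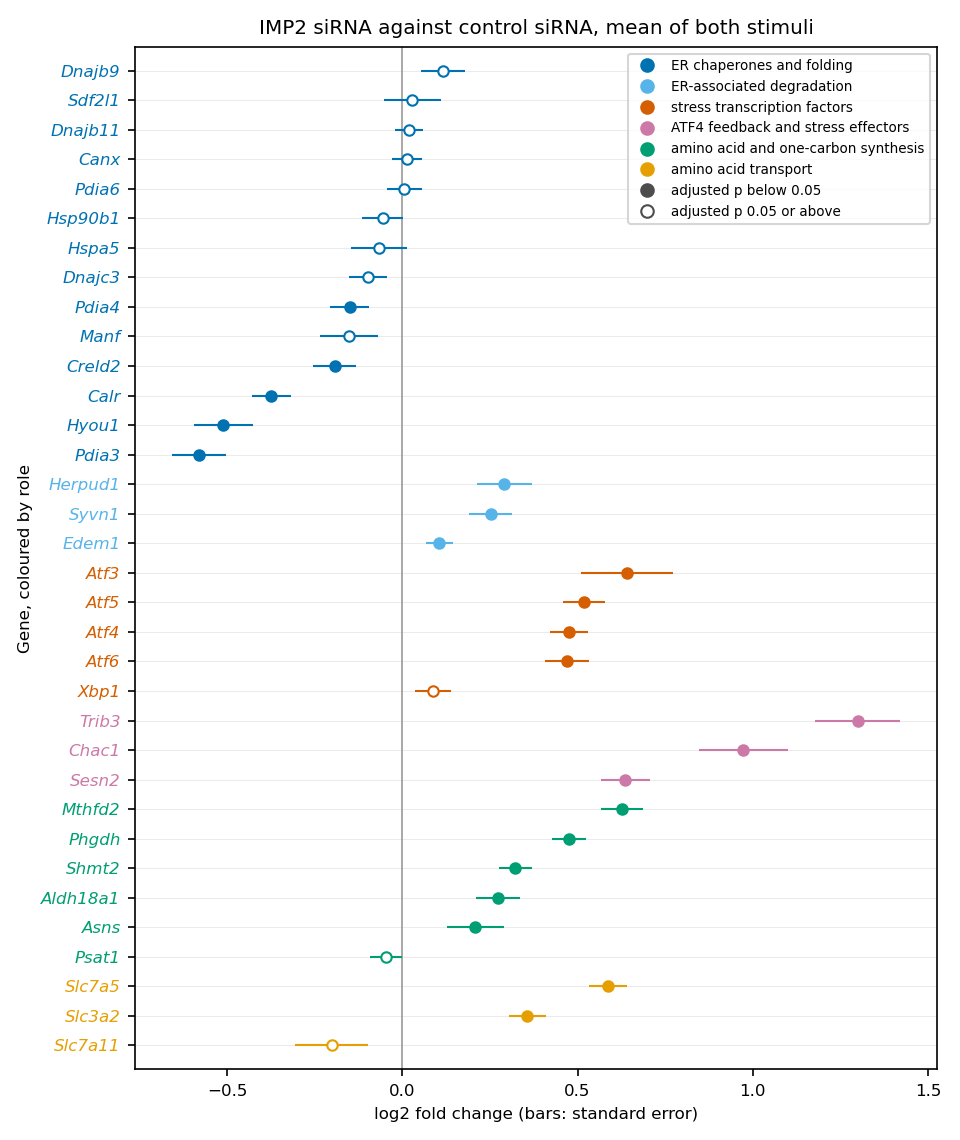
Log2 fold change of the 34 members, IMP2 siRNA against control siRNA averaged over both stimuli (x axis), with the standard error as bars and 1 gene per row (y axis), grouped by role and, within a role, in order of effect. Filled points have an adjusted p below 0.05. The 5 filled chaperones lie left of 0, and the 17 filled genes of the other roles lie right of 0, from Edem1 at 0.11 to Trib3 at 1.30.

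Among the 14 chaperones, the 3 largest falls were those of Pdia3, Hyou1 and Calr. Pdia3 (ERp57; ENSMUSG00000027248, chr2:121413775-121438687, plus strand) oxidises and isomerises disulphide bonds of glycoproteins. Its level was 1365, 1199 and 1176 CPM in siControl and 1364, 1325 and 1203 with IL-17, and at 879, 723 and 954 in siIMP2 and 862, 737 and 962 with IL-17. All libraries with the IMP2 siRNA lay below all with the control siRNA in both title sets, and the log2 fold change was -0.58 ± 0.078 (SE), edgeR adjusted p = 4.86e-05. Hyou1 (ORP150; ENSMUSG00000032115, chr9:44379490-44392369, plus strand) is a large ER chaperone that exchanges nucleotide for BiP. It was measured at 307, 255 and 207 CPM in siControl and 353, 263 and 240.1 with IL-17, and at 203, 173 and 178 in siIMP2 and 203, 187 and 186 with IL-17. The siRNA groups did not overlap within either set, and Hyou1 changed by -0.51 ± 0.084 (SE), edgeR adjusted p = 0.000254. Calr (ENSMUSG00000003814, chr8:84841850-84846934, minus strand) encodes calreticulin, a calcium-binding lectin that holds glycoproteins for folding together with Pdia3. Its level was 1948, 1742 and 1152 CPM in siControl and 2011, 1795 and 1255 with IL-17, and at 1451, 1330.5 and 1069.5 in siIMP2 and 1384, 1304 and 1007 with IL-17. Here the RB160 libraries were low in every group, so that the pooled groups overlapped while those within each set did not, and the log2 fold change was -0.37 ± 0.055 (SE), edgeR adjusted p = 0.000112.

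Smaller falls passed the test for Creld2 (-0.19 ± 0.060 (SE), edgeR adjusted p = 0.0168), an ER protein induced by ER stress, and for Pdia4 (-0.15 ± 0.056 (SE), edgeR adjusted p = 0.0393), a further disulphide isomerase. The call of Creld2 was lost without siIMP2_IL17 replicate 1 (adjusted p = 0.0509). The call of Pdia4 was lost without replicate 1 of any of the 4 groups, without siIMP2 replicate 2 and without siIMP2_IL17 replicate 2 (adjusted p = 0.0830 to 0.104). In the RB160 set the difference of mean log2 CPM was -0.029 for Creld2 and 0.028 for Pdia4, against -0.27 and -0.24 in the NA set.

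The other 9 chaperones were not called. Hspa5, the main ER Hsp70 and the usual reporter of the unfolded protein response, was at 1704, 1264 and 1271 CPM in siControl and 1887, 1485 and 1607 with IL-17, and at 1475, 1336 and 1433 in siIMP2 and 1589, 1406 and 1536 with IL-17. The siRNA groups overlapped, and the log2 fold change was -0.066 ± 0.080 (SE). Hsp90b1 (-0.056 ± 0.058), the lectin chaperone Canx (0.014 ± 0.042) and the disulphide isomerase Pdia6 (0.0062 ± 0.050) had log2 fold changes near 0. The J-domain co-chaperones Dnajb9 (0.12), Dnajb11 (0.019) and Dnajc3 (-0.10), Sdf2l1 (0.029), which works with them, and the secreted ER stress factor Manf (-0.15) did not pass the test either.

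**Figure D2:**
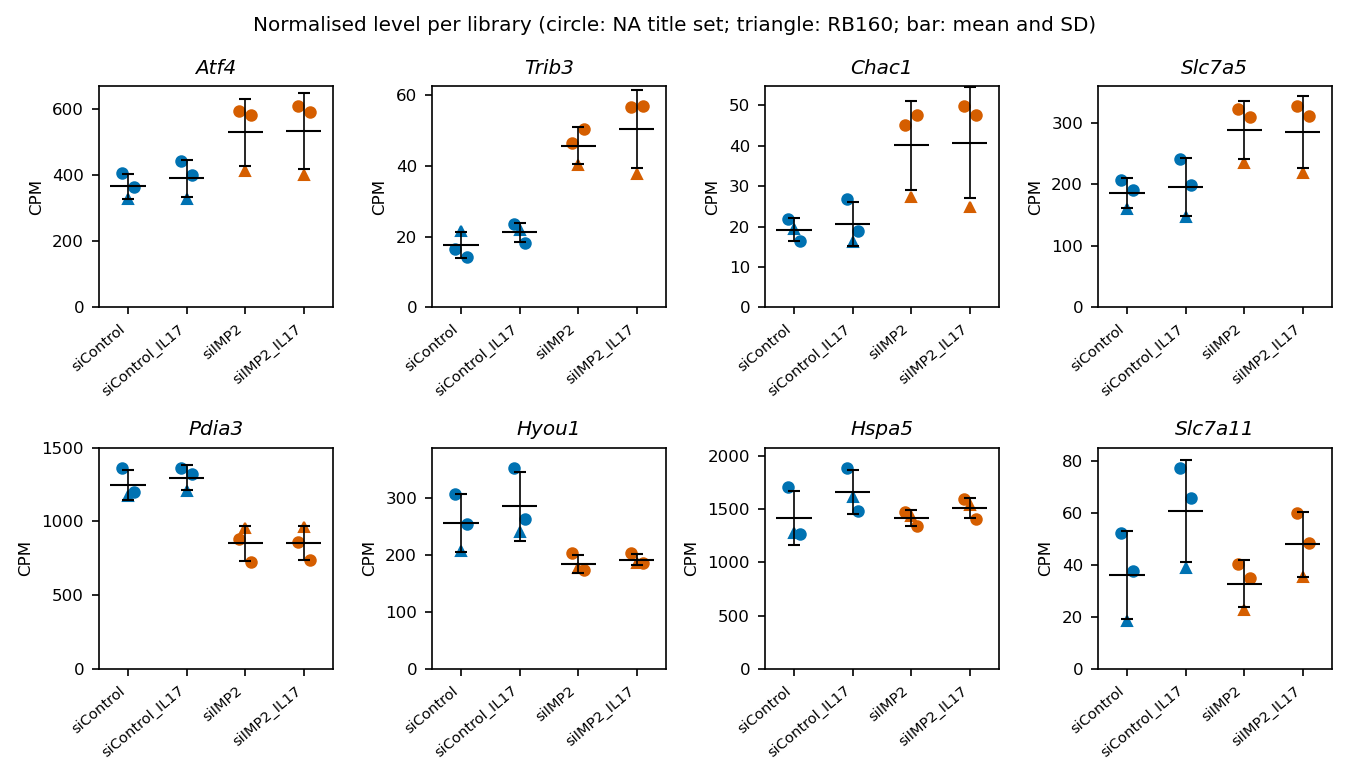
Normalised level in CPM (y axis, from 0) of 8 members in the 4 groups (x axis). Blue points are libraries with the control siRNA and orange points those with the IMP2 siRNA; circles are the NA title set, triangles RB160, and bars the mean and SD of 3 libraries. Trib3 lies at 14.4 to 23.5 CPM with the control siRNA and at 37.6 to 56.8 with the IMP2 siRNA, Pdia3 and Hyou1 lie lower with the IMP2 siRNA, and Hspa5 overlaps.

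Many ER chaperone promoters hold the ER stress response element (ERSE), to which NF-Y and ATF6 or XBP1 bind. The letters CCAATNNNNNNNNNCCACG were searched on both strands of RefSeq windows of 300 bases (250 before to 50 after a gene's start; mouse build GRCm38.p6), of which 30 of the 34 members had at least 1. They were found for 8 of 30 members (Hspa5, Hsp90b1, Calr, Canx, Pdia6, Dnajc3, Creld2 and Syvn1) and in 0.119% of the 32851 windows of all genes, where a gene can have several, or 0.115% of those of the genes tested. The short form ATTGGNCCACG (ERSE-II) was found for Herpud1 and Dnajb11, against 0.0365% of all windows and 0.0615% of those of the genes tested. The sequences of 6 of these genes are printed because they moved differently with the siRNA. Herpud1 holds ERSE-II and the others hold ERSE. Calr and Creld2 fell, Syvn1 and Herpud1 rose, and Hspa5 and Canx were not called. Each reads 5′ to 3′ on the strand of the gene, with the motif letters in capitals, in either orientation.
Calr, chr8:84847055-84847113, minus strand: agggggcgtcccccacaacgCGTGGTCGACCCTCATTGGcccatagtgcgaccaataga
Creld2, chr15:88819500-88819558, plus strand: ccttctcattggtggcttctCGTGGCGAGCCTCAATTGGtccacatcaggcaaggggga
Syvn1, chr19:6046512-6046570, plus strand: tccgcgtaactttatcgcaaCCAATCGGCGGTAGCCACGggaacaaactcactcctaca
Herpud1, chr8:94386297-94386407, plus strand: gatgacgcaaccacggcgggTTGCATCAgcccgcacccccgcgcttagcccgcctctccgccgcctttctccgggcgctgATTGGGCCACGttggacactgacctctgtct
Hspa5, chr2:34772020-34772048, plus strand: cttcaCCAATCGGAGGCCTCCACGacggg
Canx, chr11:50325780-50325838, minus strand: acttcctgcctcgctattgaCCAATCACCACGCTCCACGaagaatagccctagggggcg
In the Herpud1 window the first capitals are an amino acid response motif, described below, and the second are ERSE-II. The Hspa5 match lies before the RefSeq start but inside the gene span of the deposited files, so only 29 bases are shown. The letters TGACGTGG (UPRE), a site of XBP1 and ATF6, were found for 0 of 30 members, in 0.676% of all windows and in 0.822% of those of the genes tested. A match is a run of letters and no measure of binding.

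The 3 genes of ER-associated degradation, which brings misfolded proteins out of the ER, rose by modest amounts averaged over both stimuli. In unstimulated cells all 3 were called, and with IL-17 0 were (log2 fold changes 0.052 to 0.22). The unstimulated calls were lost on leaving out any of 2 libraries for Herpud1, 4 for Syvn1 and 7 for Edem1. Herpud1 (ENSMUSG00000031770, chr8:94386438-94395377, plus strand), an adaptor of the degradation complex, was at 101, 85.7 and 93.6 CPM in siControl and 129, 99.4 and 84.4 with IL-17, and at 132, 134 and 105 in siIMP2 and 137, 127 and 94.6 with IL-17. The siRNA groups overlapped in the NA set and were apart in the RB160 set, and the log2 fold change was 0.29 ± 0.078 (SE), edgeR adjusted p = 0.00770. Syvn1 (ENSMUSG00000024807, chr19:6046576-6053712, plus strand) encodes HRD1, the ubiquitin ligase of that complex. It was measured at 85.5, 79.4 and 56.6 CPM in siControl and 90.2, 71.8 and 61.7 with IL-17, and at 88.3, 98.5 and 79.2 in siIMP2 and 93.7, 91.8 and 74.8 with IL-17. The same held for Syvn1, with a log2 fold change of 0.25 ± 0.061 (SE), edgeR adjusted p = 0.00398. Edem1, a lectin that picks out misfolded glycoproteins, was at 97.4, 89.9 and 94.5 CPM in siControl and 99.7, 90.1 and 99.9 with IL-17, and at 105, 104 and 106 in siIMP2 and 95.1, 100.2 and 105 with IL-17. Its change was small (0.11 ± 0.039 (SE), edgeR adjusted p = 0.0386), and the call was lost with no filter beyond 1 count, in the NA libraries alone, and on leaving out any of 8 libraries: replicate 2 of any group, replicate 3 of siControl, siControl_IL17 or siIMP2_IL17, or siIMP2 replicate 1 (adjusted p = 0.0573 to 0.101 without 1 library).

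Of the 5 transcription factors, 4 rose. Atf4 (ENSMUSG00000042406, chr15:80255184-80257540, plus strand), the central factor of the integrated stress response and mainly controlled by translation, was at 405, 364 and 328 CPM in siControl and 441, 399 and 329 with IL-17, and at 593, 581 and 412 in siIMP2 and 608, 592 and 399 with IL-17. Within each title set every IMP2 siRNA library lay above every control siRNA library, and Atf4 rose by 0.48 ± 0.053 (SE), edgeR adjusted p = 1.11e-05. Atf5 (ENSMUSG00000038539, chr7:44812256-44816658, minus strand), a relative of ATF4 with a similar translational control, was at 166, 167 and 94.3 CPM in siControl and 185, 170.1 and 83.9 with IL-17, and at 271, 254 and 132 in siIMP2 and 264, 244 and 102 with IL-17. The RB160 libraries held less Atf5 in every group, so the siRNA groups overlapped over all libraries but not within a set (0.52 ± 0.060 (SE), edgeR adjusted p = 1.40e-05). Atf6 (ENSMUSG00000026663, chr1:170704674-170867771, minus strand), the membrane sensor whose released part enters the nucleus, was at 89.2, 70.4 and 81.0 CPM in siControl and 89.8, 73.1 and 86.6 with IL-17, and at 113, 106 and 122 in siIMP2 and 108, 106 and 125 with IL-17. The 6 IMP2 siRNA libraries lay above the 6 others (0.47 ± 0.064 (SE), edgeR adjusted p = 5.40e-05). Atf3, a stress-induced repressor and the member of lowest TPM, rose by 0.64 ± 0.13 (SE) averaged over both stimuli. Its mean was 3.62 CPM in siControl and 6.41 in siIMP2, and 4.70 in siControl_IL17 and 6.64 in siIMP2_IL17. Between the 2 groups with IL-17 it was not called (0.47, edgeR adjusted p = 0.0626). Xbp1, whose activity depends on splicing by IRE1 that gene counts do not show, had a log2 fold change of 0.087 ± 0.052 and was not called.

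The effector genes Trib3 and Chac1 had the largest log2 fold changes of the 34 members. Trib3 (ENSMUSG00000032715, chr2:152337422-152344032, minus strand), a pseudokinase that ATF4 and CHOP induce and that feeds back on ATF4, was at 16.6, 14.4 and 21.6 CPM in siControl and 23.5, 18.2 and 22.0 with IL-17, and at 46.5, 50.4 and 40.1 in siIMP2 and 56.5, 56.8 and 37.6 with IL-17. The lowest library with the IMP2 siRNA, at 37.6 CPM, stood above the highest with the control siRNA, at 23.5, and the log2 fold change was 1.30 ± 0.12 (SE), edgeR adjusted p = 2.37e-06, a 2.46-fold higher level. Chac1 (ENSMUSG00000027313, chr2:119351229-119354381, plus strand), which breaks down glutathione, was at 22.0, 16.5 and 19.4 CPM in siControl and 26.7, 18.9 and 16.2 with IL-17, and at 45.1, 47.7 and 27.4 in siIMP2 and 49.8, 47.5 and 24.9 with IL-17. Control siRNA libraries of the NA set reached 26.7 CPM and the RB160 libraries with the IMP2 siRNA stood at 27.4 and 24.9, but within each set the groups were apart (0.97 ± 0.13 (SE), edgeR adjusted p = 3.89e-05). Sesn2 (ENSMUSG00000028893, chr4:132492032-132510501, minus strand), a stress-induced inhibitor of mTORC1, was at 65.3, 60.9 and 56.1 CPM in siControl and 69.4, 54.4 and 46.4 with IL-17, and at 101, 105 and 76.5 in siIMP2 and 105, 101 and 65.1 with IL-17. The groups were apart within each set, and it rose by 0.64 ± 0.070 (SE), edgeR adjusted p = 9.12e-06.

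In the authors' deposited table, Trib3 alone of the 34 members had an adjusted p below 0.05 for the siRNA, and 0 members had one for IL-17. There its log2 fold change was 1.38 (adjusted p = 2.86e-06) for the IMP2 siRNA in unstimulated cells and 1.25 (adjusted p = 5.42e-05) with IL-17. In unstimulated cells Mthfd2 (0.70, adjusted p = 0.0502) and Chac1 (1.06, adjusted p = 0.0512) lay just above the threshold. Which test and model gave these values is not stated. In the edgeR fit without the title-set term, 10 of the 22 members called for the average effect kept their call, namely Trib3, Chac1, Sesn2, Atf3, Atf4, Atf6, Mthfd2, Slc7a5, Pdia3 and Hyou1.

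Amino acid and one-carbon synthesis genes rose in 5 of 6 cases. Mthfd2 (ENSMUSG00000005667, chr6:83305691-83325908, minus strand), a mitochondrial enzyme of folate metabolism, was at 109, 96.6 and 106 CPM in siControl and 125, 112 and 119 with IL-17, and at 180.0, 177 and 147 in siIMP2 and 189, 192 and 150.2 with IL-17. The 6 IMP2 siRNA libraries lay above the 6 others, and it rose by 0.63 ± 0.060 (SE), edgeR adjusted p = 3.01e-06. Phgdh (ENSMUSG00000053398, chr3:98313170-98339990, minus strand), the first enzyme of serine synthesis, was at 295, 318 and 222 CPM in siControl and 343, 288 and 213 with IL-17, and at 406, 413 and 314 in siIMP2 and 448, 446 and 304 with IL-17. The groups were apart within each set (0.48 ± 0.048 (SE), edgeR adjusted p = 4.34e-06). Shmt2 (ENSMUSG00000025403, chr10:127517123-127522444, minus strand), which makes glycine from serine in mitochondria, was at 376, 361 and 266 CPM in siControl and 455, 383 and 296 with IL-17, and at 455, 445 and 364 in siIMP2 and 514, 488 and 388 with IL-17. It rose by 0.32 ± 0.048 (SE), and the groups overlapped in the NA set, where siControl_IL17 replicate 1 and siIMP2 replicate 1 were both at 455 CPM. Aldh18a1, which starts proline synthesis, rose by 0.27 ± 0.063, and Asns, the asparagine synthetase, by 0.21 ± 0.081. The call of Asns was at the threshold (adjusted p = 0.0475) and was lost with RLE factors, in the NA libraries alone, and on leaving out any of 8 libraries: replicate 3 of any group, siControl or siControl_IL17 replicate 2, and siIMP2 or siIMP2_IL17 replicate 1 (adjusted p = 0.0796 to 0.116 without 1 library). Psat1, the next enzyme of serine synthesis after Phgdh, did not follow it, with a log2 fold change of -0.046 ± 0.046.

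Among the transporter subunits, Slc7a5 (LAT1; ENSMUSG00000040010, chr8:121881150-121907694, minus strand), which carries large neutral amino acids, was at 208, 191 and 159 CPM in siControl and 241, 199 and 147 with IL-17, and at 323, 309 and 235 in siIMP2 and 327, 311 and 218 with IL-17. It rose by 0.59 ± 0.054 (SE), edgeR adjusted p = 1.95e-06, with similar differences in the NA set (0.60) and the RB160 set (0.57). Slc3a2 (ENSMUSG00000010095, chr19:8706882-8723369, minus strand), the heavy chain shared by LAT1 and the cystine transporter, was at 297, 266 and 196 CPM in siControl and 359, 296 and 203 with IL-17, and at 379, 357 and 252 in siIMP2 and 426, 385 and 266 with IL-17. The groups overlapped in the NA set, and it rose by 0.36 ± 0.054 (SE). Slc7a11, the cystine transporter subunit xCT, had a log2 fold change of -0.20 ± 0.10 and was not called.

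Over the 34 members, the siRNA groups did not overlap within either title set for 10 that rose (Atf4, Atf5, Atf6, Trib3, Chac1, Sesn2, Phgdh, Mthfd2, Aldh18a1 and Slc7a5) and 3 that fell (Calr, Pdia3 and Hyou1). By the same measure 15% of all genes tested were higher and 14.4% lower. The remaining 21 members overlapped in at least 1 set.

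ATF4 and C/EBP proteins bind the amino acid response motif TGATGNAA (CARE). It was found in either orientation for 6 of 30 members (Atf3, Chac1, Trib3, Asns, Herpud1 and Slc7a11) in 3.97% of all windows and in 2.18% of those of the genes tested. The Trib3 match lay after the start and is not shown. The following are shown because they include a gene with a large rise (Chac1), 2 with smaller ones (Atf3 and Asns), and Slc7a11, which did not rise with the siRNA and holds the motif 2 times.
Chac1, chr2:119351029-119351076, plus strand: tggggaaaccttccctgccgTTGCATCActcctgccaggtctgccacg
Atf3, chr1:191183431-191183448, minus strand: cgcacTTGCATCAccaag
Asns, chr6:7693220-7693237, minus strand: ccacaTGATGAAActtcc
Slc7a11, chr3:50443633-50443699, minus strand: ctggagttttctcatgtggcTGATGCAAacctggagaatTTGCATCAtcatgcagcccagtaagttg
Capitals mark the motif. For Atf3 and Asns the match lies inside the gene span of the deposited files, and 18 bases are shown. Members without a match included Mthfd2, Phgdh and Sesn2, whose windows did not hold these letters.

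The pathway around the members was followed with lists chosen as described under the processing. The choice was made with earlier results of these data known, so the shares in these lists are descriptive and no independent test. Of 17 sensors and regulators of eIF2 alpha, 6 rose and 2 fell with the IMP2 siRNA averaged over both stimuli, where 24.1% of all genes rose and 25.3% fell. Ppp1r15a (GADD34), which brings a phosphatase to eIF2 alpha, was at 54.1, 49.5 and 45.4 CPM in siControl and 59.9, 46.2 and 44.2 with IL-17, and at 87.2, 94.1 and 67.5 in siIMP2 and 99.2, 101 and 73.0 with IL-17. It rose by 0.79 ± 0.063 (SE), edgeR adjusted p = 5.84e-07. Ddit3 (CHOP), the stress transcription factor downstream of ATF4, was at 44.2, 39.6 and 45.6 CPM in siControl and 49.98, 40.1 and 46.9 with IL-17, and at 65.6, 72.1 and 65.0 in siIMP2 and 76.0, 70.8 and 61.2 with IL-17. It rose by 0.62 ± 0.067 (SE), edgeR adjusted p = 7.55e-06, and both genes were higher in all 6 IMP2 siRNA libraries. The transcription factor gene Creb3 rose (0.49) and Eif2ak2, the eIF2 alpha kinase PKR, fell (-0.43). The sensors Ern1 (IRE1; -0.16 ± 0.077) and Eif2ak3 (PERK; -0.085 ± 0.045) were not called.

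Of 30 further genes of the ATF4 and amino acid response, 22 rose and 4 fell, with a median log2 fold change of 0.52 against -0.0022 over all genes. They included Cth (1.08), which makes cysteine, the proline synthesis gene Pycr1 (0.65), the autophagy receptor gene Sqstm1 (0.61) and Vldlr (0.69), a lipoprotein receptor. Of 20 aminoacyl-tRNA synthetases, which load tRNAs with amino acids, 13 rose and 1 fell, led by Nars (0.65), Sars (0.38), Aars (0.40) and Yars (0.28). In the ER lists genes moved both ways. Of 38 further genes of ER folding and export, 9 rose and 10 fell, shares near the 24.1% and 25.3% of all genes, with a median of 0.022. Among them Tmed10 (-0.45), the translocon-associated Ssr3 (-0.69) and the glucosidase subunit Ganab (-0.25) fell and Wfs1 (0.39) rose. Of 17 further tested genes of ER-associated degradation, 9 rose and 3 fell, more upward and fewer downward than the shares of all genes, including Fam8a1 (0.43) and Derl1 (0.34) upward and Edem2 (-0.52) and Derl2 (-0.36) downward.

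The second comparison was the response to IL-17 under each siRNA. Among cells with the control siRNA 1 of 34 members was called, against 0.423% of all genes, and with the IMP2 siRNA 0, against 0.511%. At an unadjusted p below 0.05 in edgeR it was 4 of 34 members with the control siRNA, against 1503 of 13702 genes. With the IMP2 siRNA it was 1 of 34 members, against 1038 of 13702 genes. DESeq2 called 1 member with each siRNA. The called gene was Slc7a11 (ENSMUSG00000027737, chr3:49892526-50443614, minus strand), whose product imports cystine for glutathione synthesis and which NRF2 and ATF4 are known to induce. It was at 52.1, 37.6 and 18.6 CPM in siControl and 77.3, 65.8 and 38.9 with IL-17, and at 40.3, 34.9 and 22.7 in siIMP2 and 59.9, 48.3 and 35.3 with IL-17. Every library with IL-17 lay above those with the same siRNA and no stimulus within each title set, while the groups pooled over the sets overlapped. The log2 fold change was 0.79 ± 0.15 (SE), edgeR adjusted p = 0.0460 with the control siRNA and 0.56 ± 0.15 (SE), edgeR adjusted p = 0.165 with the IMP2 siRNA, and 0.68 ± 0.10 (SE), edgeR adjusted p = 0.00357 over both siRNAs, where 1 member (2.72% of all genes) was called. The call with the control siRNA was lost on leaving out any library but siControl replicate 1, siIMP2_IL17 replicate 2 and siIMP2_IL17 replicate 3 (adjusted p = 0.0539 to 0.202), while the average over both siRNAs kept its call without any 1 library. The response of Slc7a11 differed between the siRNAs by -0.22 ± 0.21 (SE), which did not pass the test.

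The other 33 members were not called after 8 hours of IL-17 with either siRNA. With the control siRNA 33 of 34 log2 fold changes were above 0, with a median of 0.085 against -0.0059 over all genes, of which 6570 of 13702 were above 0. The largest after Slc7a11 were those of Atf3 (0.40 ± 0.19), Trib3 (0.27 ± 0.18), Dnajb9 (0.24 ± 0.090) and Hspa5 (0.23 ± 0.11), none of which passed the test, and Sesn2 was the gene below 0 (-0.11). With the IMP2 siRNA 21 of 34 values were above 0, with a median of 0.0049. The difference of the IL-17 responses, IMP2 siRNA less control siRNA, was below 0 for 32 of 34 members (median -0.087) and was called for 0 members and 0% of all genes by edgeR. At an unadjusted p below 0.05 it was 0 of 34 members and 152 of 13702 genes, and DESeq2 called 0 members as well. The 5 lists of further pathway genes held 0 genes called for IL-17 with the control siRNA. The members were measured in the same libraries, so their common sign is not a count of independent observations.

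**Figure D3:**
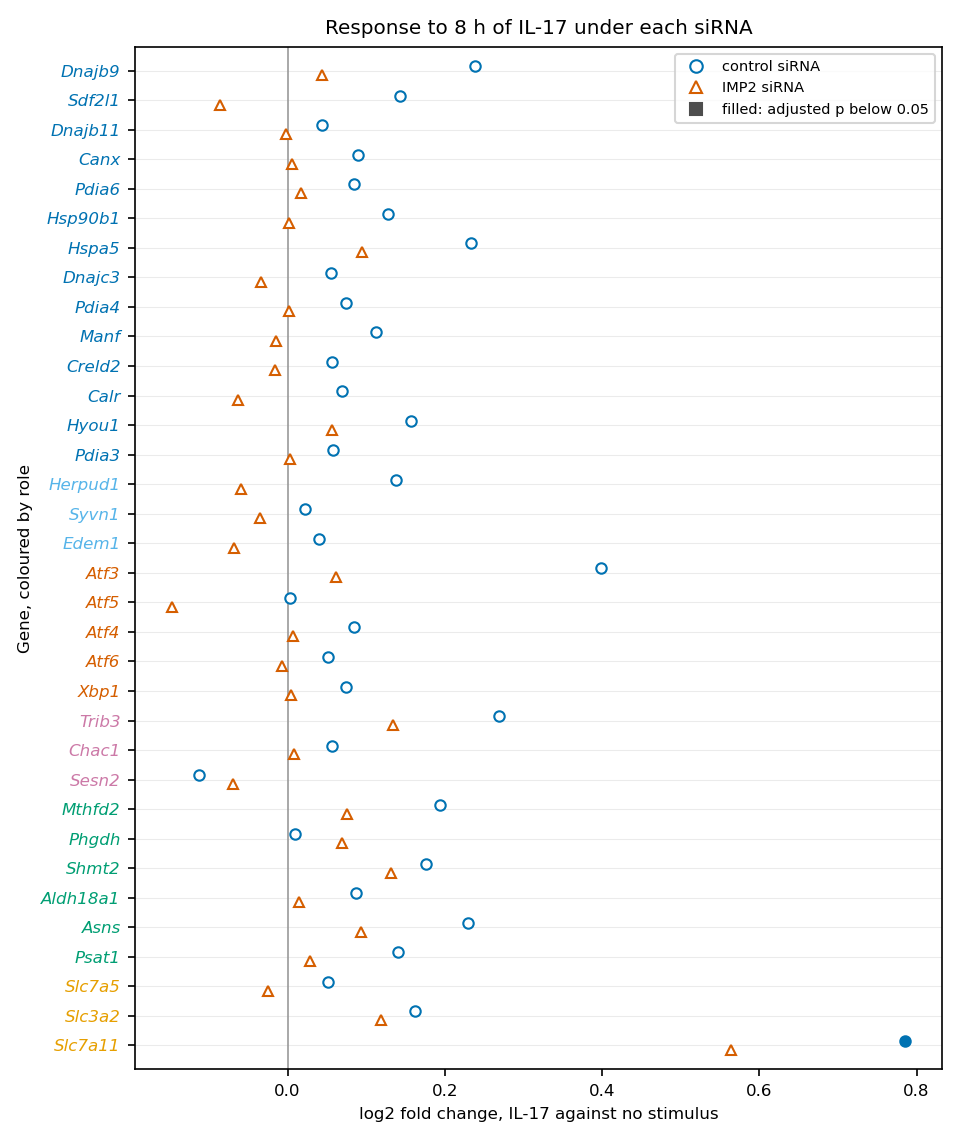
Log2 fold change of the 34 members after IL-17 against no stimulus (x axis), with the control siRNA (blue circles) and with the IMP2 siRNA (orange triangles), 1 gene per row (y axis) grouped by role from chaperones at the top to transporters at the bottom. The single filled point is Slc7a11 with the control siRNA at 0.79, and all other members lie between -0.15 and 0.40 except Slc7a11 with the IMP2 siRNA at 0.56.

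The third comparison was between the title sets, which are not a treatment. Relative to the NA set, 18 of 34 members were lower and 3 higher in the RB160 set, against 34.6% and 34.9% of all genes. Atf5 (-1.05 ± 0.066 (SE), edgeR adjusted p = 2.22e-08), Slc7a11 (-0.86), Slc3a2 (-0.59), Chac1 (-0.55), Calr (-0.52) and Asns (-0.50) were among those lower. Psat1 (0.45), Canx (0.26) and Aldh18a1 (0.20) were higher, the last not called without siControl replicate 3 (adjusted p = 0.0524). All 3 transporter subunits were lower, while the chaperones were split between 6 lower, 1 higher and 7 not called. Of the 6, the call of Creld2 was lost without replicate 3 of siControl or of siControl_IL17 (adjusted p = 0.0962 to 0.106). The calls of Hyou1 and Sdf2l1 were each lost without replicate 1 or 3 of siControl or siControl_IL17, that of Hyou1 also without siIMP2 replicate 1 and that of Sdf2l1 also without siIMP2_IL17 replicate 1 (adjusted p = 0.0507 to 0.147 for Hyou1 and 0.0534 to 0.177 for Sdf2l1).

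The size of the siRNA effect was compared between the sets with an interaction term. It differed for 2 of 34 members, Trib3 and Mthfd2, a share near the 6.58% of all genes. The siRNA groups differed in mean log2 CPM of Trib3 by 1.55 in the NA set and by 0.83 in the RB160 set, and the difference between the sets was -0.71 ± 0.13 (SE), edgeR adjusted p = 0.00601. For Mthfd2 the values were 0.74 and 0.40 (-0.33 ± 0.085 (SE), edgeR adjusted p = 0.0363). Both genes were higher with the IMP2 siRNA in each set. The call of Trib3 was lost without any 1 of the 4 RB160 libraries (adjusted p = 0.119 to 0.151), and that of Mthfd2 without any of 9 libraries, which were all but siControl replicates 1 and 2 and siControl_IL17 replicate 1 (adjusted p = 0.0575 to 0.377). All 14 chaperones had a less negative or more positive siRNA effect in the RB160 set, with a median difference of 0.25. In edgeR 0 of these differences passed the test, and 7 of 14 had an unadjusted p below 0.05, against 2942 of 13702 genes. The chaperones were measured in the same libraries, so their common sign is not a count of independent observations. The IL-17 effect differed between the sets for 0 members by edgeR and for 0.307% of all genes, and DESeq2 called 0 members. At an unadjusted p below 0.05 in edgeR it was 3 of 34 members and 1310 of 13702 genes.

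**Figure D4:**
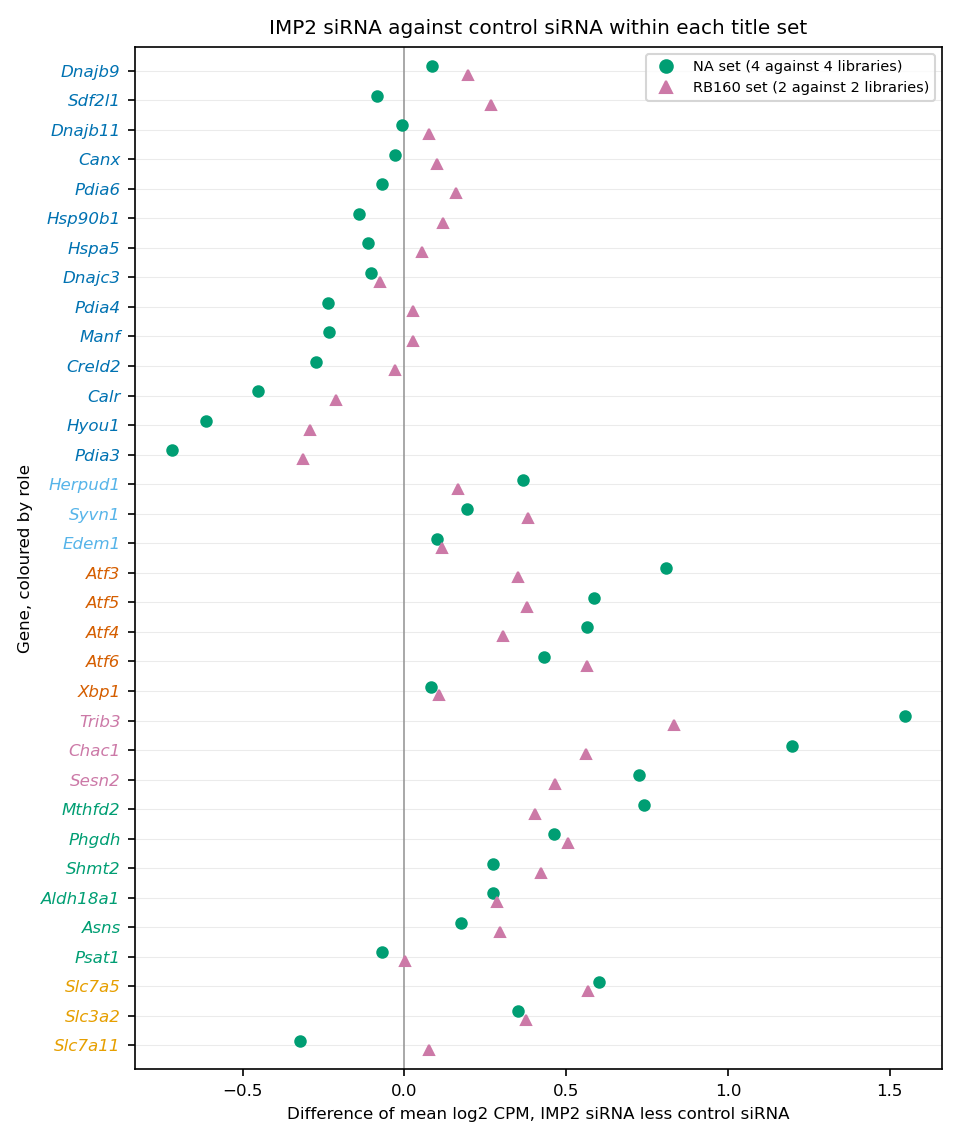
Difference of mean log2 CPM between IMP2 siRNA and control siRNA libraries (x axis) in the NA set (green circles, 4 against 4 libraries) and the RB160 set (pink triangles, 2 against 2), 1 gene per row (y axis) grouped by role from chaperones at the top to transporters at the bottom. Pdia3, Hyou1 and Calr lie left of 0 and the transcription factors and ATF4 effectors right of 0 in both sets, while Hsp90b1, Hspa5 and several other chaperones lie on opposite sides.

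The deposited files also give the reads that fall within a gene but outside its exons, largely introns, at 4.49% to 6.42% of gene reads. Such reads can come from unspliced RNA and were fitted in the same way after the files had been seen. In this read class 13 members rose and 1 fell with the IMP2 siRNA, against 11.2% and 11% of the 12463 genes tested. Of the 17 members that rose by exon reads, 11 also rose outside exons, where they made up 11 of 13. Both read classes come from the same libraries. The same overlap was not counted over all genes, so whether it is particular to the members is not known. Trib3 (1.09 ± 0.11 (SE), edgeR adjusted p = 7.52e-08), Slc7a5 (1.08 ± 0.13), Sesn2 (0.58 ± 0.11), Shmt2 (0.53 ± 0.074) and Mthfd2 (0.51 ± 0.085) rose in both read classes.

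Of the 5 chaperones that fell by exon reads, 1 fell outside exons. Outside exons, Pdia3 had a log2 fold change of 0.021 ± 0.11 (SE; 80 to 232 reads per library), Calr of -0.050 ± 0.085 (239 to 579 reads), Hyou1 of -0.12 ± 0.17 (27 to 86 reads) and Creld2 of -0.11 ± 0.082, and these 4 were not called. On exons their log2 fold changes were -0.58, -0.37, -0.51 and -0.19. Pdia4 fell in both read classes (-0.35 outside exons and -0.15 on them). Conversely, Psat1 (0.36) and Xbp1 (0.30) rose outside exons without a call on exons, while Slc3a2 and Syvn1, which rose on exons, had values of -0.10 ± 0.084 and -0.043 ± 0.085 outside them. The difference between the read classes was not tested for any gene, and reads of overlapping genes may count in either.

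**Figure D5:**
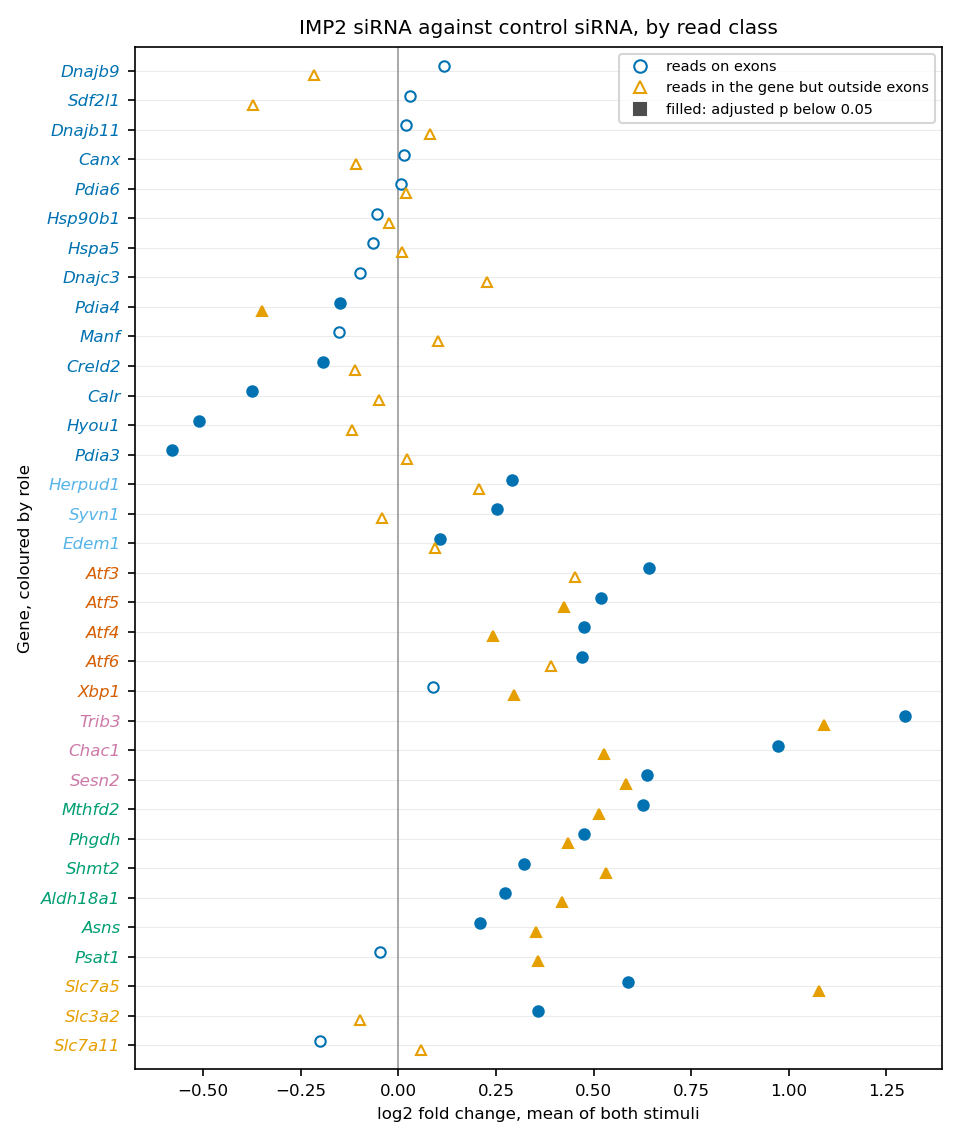
Log2 fold change of the 34 members, IMP2 siRNA against control siRNA over both stimuli (x axis), from reads on exons (blue circles) and from reads in the gene but outside exons (orange triangles), 1 gene per row (y axis) grouped by role from chaperones at the top to transporters at the bottom. Filled symbols have an adjusted p below 0.05; the ATF4 effectors are filled in both classes, while Pdia3, Hyou1 and Calr are filled on exons and near 0 outside them.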

How the data were processed

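Whole-number counts of reads per gene were deposited by the authors for 12 libraries, with reads paired and trimmed per the file headers. Coordinates are those of the deposited files, whose build is mm10 according to the submitters' processing notes. No aligner, counter or strand setting is stated, so counts of overlapping, antisense or paralogous genes are uncertain. The deposited TPM values are scaled by exon length and library size, per the file headers. The deposited log2 fold changes and p-values are the authors' own; per the file headers, the p-values carry a false discovery rate adjustment.

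The labels gave each library's group, and its title gave the title set; replicate numbers follow accession order and pair nothing. The model for exon counts was run in edgeR 4.0.16 under R 4.3.3 with TMM factors and quasi-likelihood tests. Genes were filtered by filterByExpr with a minimum count of 10 and total of 15. The terms were siRNA, IL-17, their interaction and title set, with a threshold of 0.05 after Benjamini-Hochberg adjustment. The method was tested on simulated counts that held no difference between the title sets, so that test does not cover such a difference. Log2 CPM used a prior count of 2. Set differences are of mean log2 CPM. Reads outside exons are total gene reads less exon reads. Alternatives were RLE factors, DESeq2 1.42.0, other filters (none beyond 1 count, or 1 CPM in 3 libraries), uniquely mapped reads, leaving out each library, the NA set alone, omitting the title-set term and using only the groups compared; reads outside exons and a block for runs of NA titles were added after seeing the data. Tables and figures used Python 3.11.15, pandas 2.3.3 and matplotlib 3.10.9.

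The members and all gene lists were chosen with earlier results of these data known. Levels in every library are given for up to 3 called members of smallest p per role and for members called for IL-17 or for a difference between sets, with full statistics for up to 8 per direction. From the other lists up to 4 called genes of smallest p were named, with Ddit3, Ern1, Eif2ak3 and Ppp1r15a always. Hspa5 and the members at a lost call were also described after their values were seen.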

Additional observations from a re-analysis of the deposited data

Results flagged for a closer look

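For 2 of 34 members the siRNA effect differed between the title sets by the interaction term, a share near the 6.58% of all genes. Trib3 rose less in the RB160 set than in the NA set, by a log2 difference of -0.71 ± 0.13 (SE; edgeR adjusted p = 0.00601). Mthfd2 also rose less there, by -0.33 ± 0.085 (edgeR adjusted p = 0.0363). The call of Trib3 was lost without any 1 of the 4 RB160 libraries, and that of Mthfd2 without any of 9 libraries. Each set holds every group, but the RB160 set has 1 library per group. What distinguishes the sets is not given in the labels, and why the effects differ was not tested.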

How the results depend on the processing

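Of the 80 called results for single members, none changed sign under the alternatives run other than reads outside exons. On leaving out 1 library, 885 of these values stayed past the threshold and 75 did not. Over the other listed alternatives that were not added later, 496 stayed and 52 did not. Those include the NA set alone and only the groups compared, which use fewer libraries. Without the title-set term the number of members called fell from 22 to 10 for the siRNA averaged over both stimuli, from 19 to 2 in unstimulated cells, from 14 to 3 with IL-17, and from 1 to 0 for each of the IL-17 effects in control siRNA cells and over both siRNAs; the spread then holds the difference between the sets. From reads outside exons 14 members were called for the averaged siRNA effect; of the 22 called on exons 12 were called the same way, 7 kept their direction without a call, and 3 changed sign without a call, Pdia3 (0.021), Syvn1 (-0.043) and Slc3a2 (-0.10). The NA libraries alone called 0 members for IL-17 with the control siRNA. For IL-17 with the IMP2 siRNA, DESeq2, no filter and only the groups compared each called 1 member in place of 0. For the difference of siRNA effects between sets, DESeq2 called 4 and no filter 12 members in place of 2, and no filter called 2 in place of 0 for the difference of IL-17 effects; the cause was not tested. Leaving out each library gave 19 to 23 members for the averaged siRNA effect, 14 to 21 unstimulated, 14 to 17 with IL-17, 0 to 2 for IL-17 with the control siRNA, 0 to 1 with the IMP2 siRNA, 1 to 2 for averaged IL-17, 20 to 23 for the title set, and 0 to 5 and 0 for the differences of siRNA and IL-17 effects between sets. Mean levels moved by less than 1 SD with RLE factors in all 136 cases. The labels give no replicate numbers that the groups share, but the NA titles numbered 1 to 4 and 5 to 8 each hold 1 library per group. The difference of replicates 1 and 2 correlated between groups at r = 0.017 to 0.17 across genes, which are not independent, so these runs were not taken as pairs. With the runs as a block, an alternative added after seeing the data, all 80 called results kept their call, and the members called were 24 for the averaged siRNA effect, 21 unstimulated, 19 with IL-17, 1 for IL-17 with the IMP2 siRNA, 13 for the difference of siRNA effects between sets and 1 for that of IL-17 effects. Small changes of low genes such as Atf3 (3.26 to 7.34 CPM) are limited by 3 libraries a group, and protein levels, splicing of Xbp1 and cleavage of Atf6 were not measured.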

Other observations

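Other stress and folding lists held genes that moved in each direction with the IMP2 siRNA, where 24.1% of all genes rose and 25.3% fell. Of 19 cytosolic heat shock genes 5 rose and 3 fell, with the small heat shock protein genes Hspb1 (1.09 ± 0.064 (SE), edgeR adjusted p = 5.58e-08) and Hspb8 (0.34) and the co-chaperone gene Dnajb4 (0.80) upward and Hsph1 (-0.38) downward. Of 11 mitochondrial chaperones and proteases 4 rose, led by the protease genes Lonp1 (0.34) and Htra2 (0.25), and 2 fell, the chaperonin genes Hspd1 (-0.16) and Hspe1 (-0.16). Of 16 genes of collagen folding 7 rose and 2 fell, among them the collagen chaperone Serpinh1 (0.41 ± 0.044 (SE), edgeR adjusted p = 7.42e-06) and the lysyl hydroxylase Plod1 (0.41) upward.

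Some antioxidant genes of the NRF2 list, to which Slc7a11 is related in function, rose with IL-17. With IL-17 averaged over both siRNAs 8 of 17 rose, 0 fell and 9 were not called by edgeR, against 2.72% of all genes called, while 1 of 17 was called with the control siRNA alone and 2 of 17 with the IMP2 siRNA alone. They were led by Gclm (0.35 ± 0.038 (SE), edgeR adjusted p = 0.000466), a subunit of the enzyme that starts glutathione synthesis, Hmox1 (0.41), the haem oxygenase, Pgd (0.22) and Srxn1 (0.31). With the IMP2 siRNA averaged over both stimuli 5 rose and 9 fell, with Hmox1 (0.70) and Tkt (0.60) upward and G6pdx (-0.83) and Prdx1 (-0.34) downward.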
